A study of Mus musculus with 24 samples.

Results

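Wnt signalling is described here through 50 genes: 19 Wnt ligands, 12 receptors (the Frizzleds Fzd1 to Fzd10 with Lrp5 and Lrp6), 9 secreted inhibitors of the Dkk, Sfrp and Wif families, and 10 intracellular targets and effectors. They were taken by gene symbol, through the Entrez identifiers, from 27080 genes counted in every library, of which 25189 had a symbol, and all 50 were found. The cells were mammary basal cells of untreated C57BL/6 female mice, sorted straight from the gland into 4 subpopulations by Lgr5, a receptor that strengthens Wnt signalling, and Tspan8, a membrane tetraspanin. These were Lgr5+Tspan8hi, Lgr5+Tspan8-, Lgr5-Tspan8hi and Lgr5-Tspan8- cells. The sources used here give neither the age of the mice, nor how each marker was read in the sort, nor whether replicates came from separate animals. The p-values therefore cover the spread between these libraries alone, and that spread may be technical. In each subpopulation 2 libraries were made by chromatin immunoprecipitation for H3K4me3, found at promoters that are active or poised, and 2 for H3K27me3, which Polycomb complexes place on silenced genes.

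Wnt ligands are secreted, lipid-modified proteins that bind a Frizzled receptor together with the co-receptors Lrp5 or Lrp6, which stops the destruction complex built on Axin and Apc from degrading β-catenin. Stabilised β-catenin then joins Tcf and Lef factors on DNA. Dkk proteins such as Dkk1 block the co-receptors, while Sfrp proteins and Wif1 bind the ligands themselves. In the mammary gland the pathway is known for its part in the embryonic bud, in branching, and in keeping basal cells able to rebuild the gland on transplantation.

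H3K4me3 is given as CPM, the counts of a gene scaled to a common library total, which for these files reads as a count around the gene start. H3K27me3 counts grew with gene length, so levels of that mark are compared between genes only as CPM per kilobase (kb) of gene span, and within a gene as CPM. Where 8 values follow each other they are replicates 1 and 2 of Lgr5+Tspan8hi, Lgr5+Tspan8-, Lgr5-Tspan8hi and Lgr5-Tspan8-, in that order. Coordinates are those of GRCm38.p6. In a sorted population, more cells carrying a mark and more mark per cell cannot be told apart.

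Total counts ran from 1472251 to 4740371 per H3K4me3 library and from 2639862 to 6972189 per H3K27me3 library. The effective depth is the number of independent reads that gives the same number of genes at 0, as a percent of the total count. It was 17.2% to 47.4% in Tspan8hi and 55.2% to 98.8% in Tspan8- libraries for H3K4me3. For H3K27me3 it was 31.0% to 63.5% against 70.7% to 77.5%, and Lgr5-Tspan8hi replicate 1 was the lowest in both marks. The Tspan8 comparison is thus also one of a lower against a higher percent of effective depth, while the total counts overlapped. H3K4me3 lay above the median of all genes at 9 of 11 basal marker genes, with Trp63 at 0 in at least 1 library. It also did so at 10 of 12 luminal, 5 of 9 fibroblast, 3 of 5 pericyte, 1 of 5 endothelial and 0 of 6 immune markers. Elf5 among the luminal markers, Col3a1 and Fap among the fibroblast markers and 5 of the 6 immune markers were at 0 in at least 1 library.

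Most of the Wnt genes carried H3K4me3 without dense H3K27me3. A gene was called high in H3K4me3 at or above the 50th percentile of all genes with a symbol (27.8 CPM) and dense in H3K27me3 at or above the 75th percentile (1.52 CPM per kb). By these limits 32 of the 50 genes had high H3K4me3 alone, 8 had both marks, 8 had dense H3K27me3 alone and 2 had neither. Over all genes with a symbol the shares were 45.5%, 4.52%, 20.5% and 29.5%, and over the 50 Wnt genes 64%, 16%, 16% and 4%.

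By role, of the 12 receptors 10 had H3K4me3 alone and 2 had both marks, and of the 10 targets and effectors 9 had H3K4me3 alone and 1 had both. The 19 ligands were divided into 9 with H3K4me3 alone, 5 with both marks, 4 with H3K27me3 alone and 1 with neither. The 9 inhibitors held 4, 0, 4 and 1 in the same order. Median H3K4me3 was 35.3 CPM over the ligands, 112 CPM over the receptors, 22.2 CPM over the inhibitors and 92.2 CPM over the effectors, beside 27.8 CPM over all genes with a symbol. Median H3K27me3 was 1.32, 0.536, 1.03 and 0.289 CPM per kb in that order, beside 0.601 over all genes with a symbol. Across the 50 genes the marks ran against each other, with a Spearman rho of -0.67, beside -0.50 across 25185 genes. These points share the same 8 libraries of each mark.

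**Figure D1:**
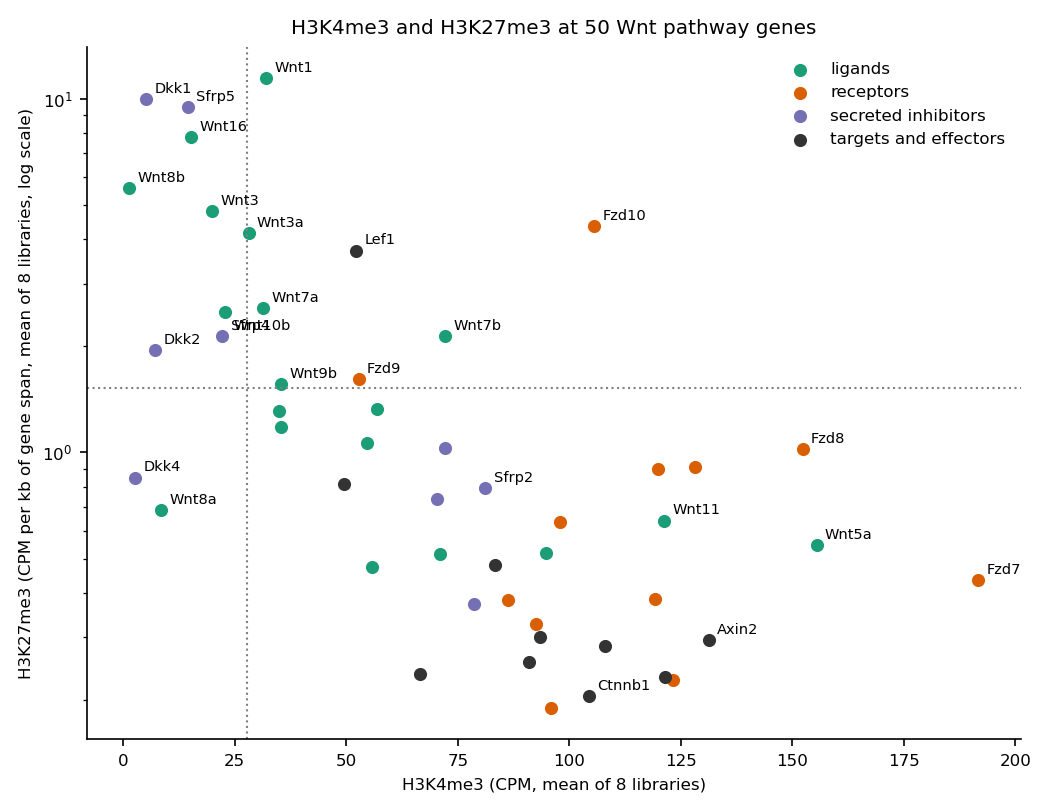
Mean H3K4me3 (CPM, horizontal axis) against mean H3K27me3 (CPM per kb of gene span, vertical log axis) for the 50 genes, each point being 1 gene averaged over 8 libraries, coloured by role, with dotted lines at the limits of 27.8 CPM and 1.52 CPM per kb. Fzd10 stands apart in the upper right at 106 CPM and 4.35 CPM per kb, and Dkk1, Sfrp5 and Wnt16 lie in the upper left.

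Among the ligands the largest H3K4me3 levels were at Wnt5a and Wnt11, which are known mainly for signalling that does not go through β-catenin. At Wnt5a (chromosome 14, 28504543 to 28527448, plus strand) H3K4me3 was 133 and 163, 153 and 173, 143 and 169, and 139.7 and 169 CPM. At Wnt11 (chromosome 7, 98835084 to 98854747, plus strand) it was 100.02 and 147, 128 and 137, 112 and 118, and 121 and 107 CPM. The lowest of these libraries was at 100.02 CPM, for Wnt11. At Wnt5a the subpopulations overlapped. At Wnt11 the Lgr5+Tspan8hi libraries spanned all others, and both Lgr5+Tspan8- libraries lay above the 4 Lgr5- libraries. H3K27me3 was low there, at 0.548 ± 0.199 CPM per kb for Wnt5a and 0.641 ± 0.232 for Wnt11 (SD over 8 libraries). Wnt9a, Wnt5b, Wnt4, Wnt6, Wnt10a, Wnt2b and Wnt2 made up the rest of the 9 ligands with H3K4me3 alone, with means from 34.9 CPM at Wnt2 to 94.7 CPM at Wnt9a.

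The densest H3K27me3 of all 50 genes was at Wnt1, the ligand known as a target of mammary tumour virus insertion (chromosome 15, 98789857 to 98793830, plus strand). Its H3K27me3 was 10.1 and 10.4, 10.7 and 11.1, 9.83 and 11, and 12.1 and 15.9 CPM per kb. No library was under 9.83 CPM per kb, and Lgr5-Tspan8- replicate 2 was the highest. H3K4me3 at the same gene was 32.6 and 40.6, 24.5 and 30.4, 33.1 and 25.7, and 31.7 and 37.7 CPM, near the median of all genes, so that Wnt1 counted as a gene with both marks. Wnt16 (chromosome 6, 22288178 to 22298522, plus strand) was the next ligand, with 6.39 and 7.86, 8.52 and 5.94, 7.41 and 6.73, and 9.47 and 9.97 CPM per kb of H3K27me3, but its H3K4me3 mean was 15.2 ± 3.55 CPM (SD over 8 libraries). Wnt8b had H3K27me3 of 5.59 ± 0.866 CPM per kb (SD over 8 libraries) and almost no H3K4me3, with 9 and 0, 1 and 1, 0 and 4, and 7 and 2 counts, a total of 24 in 8 libraries. Its H3K4me3 was too low to be tested. A count of 0 allows up to 3 counts.

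The promoters of Wnt1 and Wnt8b are shown because both genes had dense H3K27me3 and differed in H3K4me3. Each is the 250 bases before the gene start in the RefSeq table of GRCm38.p6, read 5′ to 3′ along the gene, with every CpG (a C followed by a G) in capitals. Wnt1 (chr15:98789607-98789856, plus strand) holds 23 CpGs and Wnt8b (chr19:44493222-44493471, plus strand) holds 5. Wnt8b was picked after its values were seen, as the gene with the least H3K4me3 and, level with Nkd1, the fewest CpGs (6 in 300 bases) of the 34 genes that have a promoter in the table.
Wnt1: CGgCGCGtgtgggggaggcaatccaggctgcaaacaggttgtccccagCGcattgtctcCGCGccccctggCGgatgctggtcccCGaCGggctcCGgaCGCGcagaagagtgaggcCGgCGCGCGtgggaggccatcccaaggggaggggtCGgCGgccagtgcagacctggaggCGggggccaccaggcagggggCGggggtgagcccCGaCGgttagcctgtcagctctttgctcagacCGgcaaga
Wnt8b: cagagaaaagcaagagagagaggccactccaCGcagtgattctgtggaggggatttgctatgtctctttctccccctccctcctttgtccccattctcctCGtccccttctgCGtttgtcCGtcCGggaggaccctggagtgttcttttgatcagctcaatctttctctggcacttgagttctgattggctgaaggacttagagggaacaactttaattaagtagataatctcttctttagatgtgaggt

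Besides Wnt1, the ligands with both marks were Wnt3a, Wnt7a, Wnt7b and Wnt9b. Wnt7b had the most H3K4me3 of the 5, at 72.1 ± 6.62 CPM (SD over 8 libraries), with 2.13 ± 0.487 CPM per kb of H3K27me3. Its start lies within 2 kb of that of AU022754, so the H3K4me3 of these genes cannot be told apart. Wnt3a and Wnt9b sat close to a limit: Wnt3a was at the 50.2 percentile for H3K4me3, and Wnt9b at the 75.6 percentile for H3K27me3. The GENCODE M21 span of Wnt9b is shorter, at 22.458 kb in place of 47.911 kb, and with it the gene had 3.33 CPM per kb, well past the limit of 1.44 that those spans give. With GENCODE spans 1 of the 50 genes changed state, Wnt2, from H3K4me3 alone to both marks at 1.49 CPM per kb. Wnt8a had neither mark, with 8.5 ± 2.97 CPM of H3K4me3 and 0.686 ± 0.211 CPM per kb of H3K27me3 (SD over 8 libraries).

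Wnt ligands often lie beside each other in the genome, and 4 pairs lay within 50 kb. In 3 of these the neighbours differed in chromatin state by the limits used. For Wnt1 with Wnt10b and Wnt9b with Wnt3, all dense in H3K27me3, the state turned on the H3K4me3 limit alone. Wnt1 was at the 52.4 and Wnt10b at the 47.8 percentile for H3K4me3, and Wnt9b at the 54.2 and Wnt3 at the 46.3 percentile. The H3K4me3 ranges overlapped in both pairs, though Wnt1 was above Wnt10b and Wnt9b above Wnt3 in every library. Wnt3a and Wnt9a, 16.1 kb apart on chromosome 11, had H3K27me3 of 3.61 and 3.92, 4.31 and 4.23, 4.14 and 4.08, and 4.2 and 4.89 and of 0.695 and 0.509, 0.489 and 0.398, 0.492 and 0.444, and 0.561 and 0.555 CPM per kb. Every Wnt3a library was far above every Wnt9a library in that mark. H3K4me3 ran the other way, at 23.3 and 23.6, 28.1 and 20.9, 22.2 and 41.3, and 26.5 and 39 CPM for Wnt3a and 94.9 and 105, 95.6 and 105, 118 and 86.5, and 71 and 81.9 CPM for Wnt9a, with no overlap.

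Wnt1 and Wnt10b, 11.65 kb apart on chromosome 15, were both dense in H3K27me3. Wnt10b, a ligand of the embryonic mammary bud, had 2.81 and 2.26, 2.32 and 2.45, 2.66 and 1.97, and 2.71 and 2.82 CPM per kb, below every library of Wnt1. Its H3K4me3 was 17.8 and 38.1, 14.8 and 27, 19.5 and 22.6, and 20.8 and 21.7 CPM. Only Lgr5+Tspan8hi replicate 2 was above the limit of 27.8 CPM, so Wnt10b counted as H3K27me3 alone.

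Wnt3 and Wnt9b overlap on chromosome 11 and start within 2 kb of each other in the RefSeq spans, so their H3K4me3 counts may share reads. The start in the promoter table lies 25.45 kb from that of the span for Wnt9b. Wnt3 had H3K27me3 of 3.92 and 4.56, 4.33 and 5.74, 4.23 and 4.52, and 4.28 and 6.92 CPM per kb and Wnt9b of 1.46 and 1.2, 1.73 and 1.64, 1.51 and 1.51, and 1.69 and 1.72. H3K4me3 was 21.2 and 17.1, 10.5 and 29.7, 20.4 and 17.9, and 18.5 and 23.7 CPM at Wnt3 and 33.9 and 33.5, 28.1 and 33.1, 36.2 and 36.6, and 34.1 and 47.5 CPM at Wnt9b. Wnt3 was thus the more densely covered by H3K27me3 in every library, and with GENCODE spans the means were 4.82 and 3.33 CPM per kb.

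Wnt6 and Wnt10a, 6.696 kb apart on chromosome 1, carried little H3K27me3, with means of 0.475 and 1.06 CPM per kb. With the GENCODE spans, which shorten Wnt6 from 30.981 to 13.431 kb, the means were 1.1 and 1.02, so which of the genes is the denser depends on the span. Their H3K4me3 ranges overlapped, at 35.2 and 62, 59.2 and 66.8, 38 and 63.1, and 56.6 and 64.6 CPM for Wnt6 and 40.3 and 60.2, 49.4 and 67.5, 47.1 and 58.5, and 53.1 and 61.2 CPM for Wnt10a. In both genes Lgr5+Tspan8hi replicate 1 was the lowest H3K4me3 library.

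**Figure D2:**
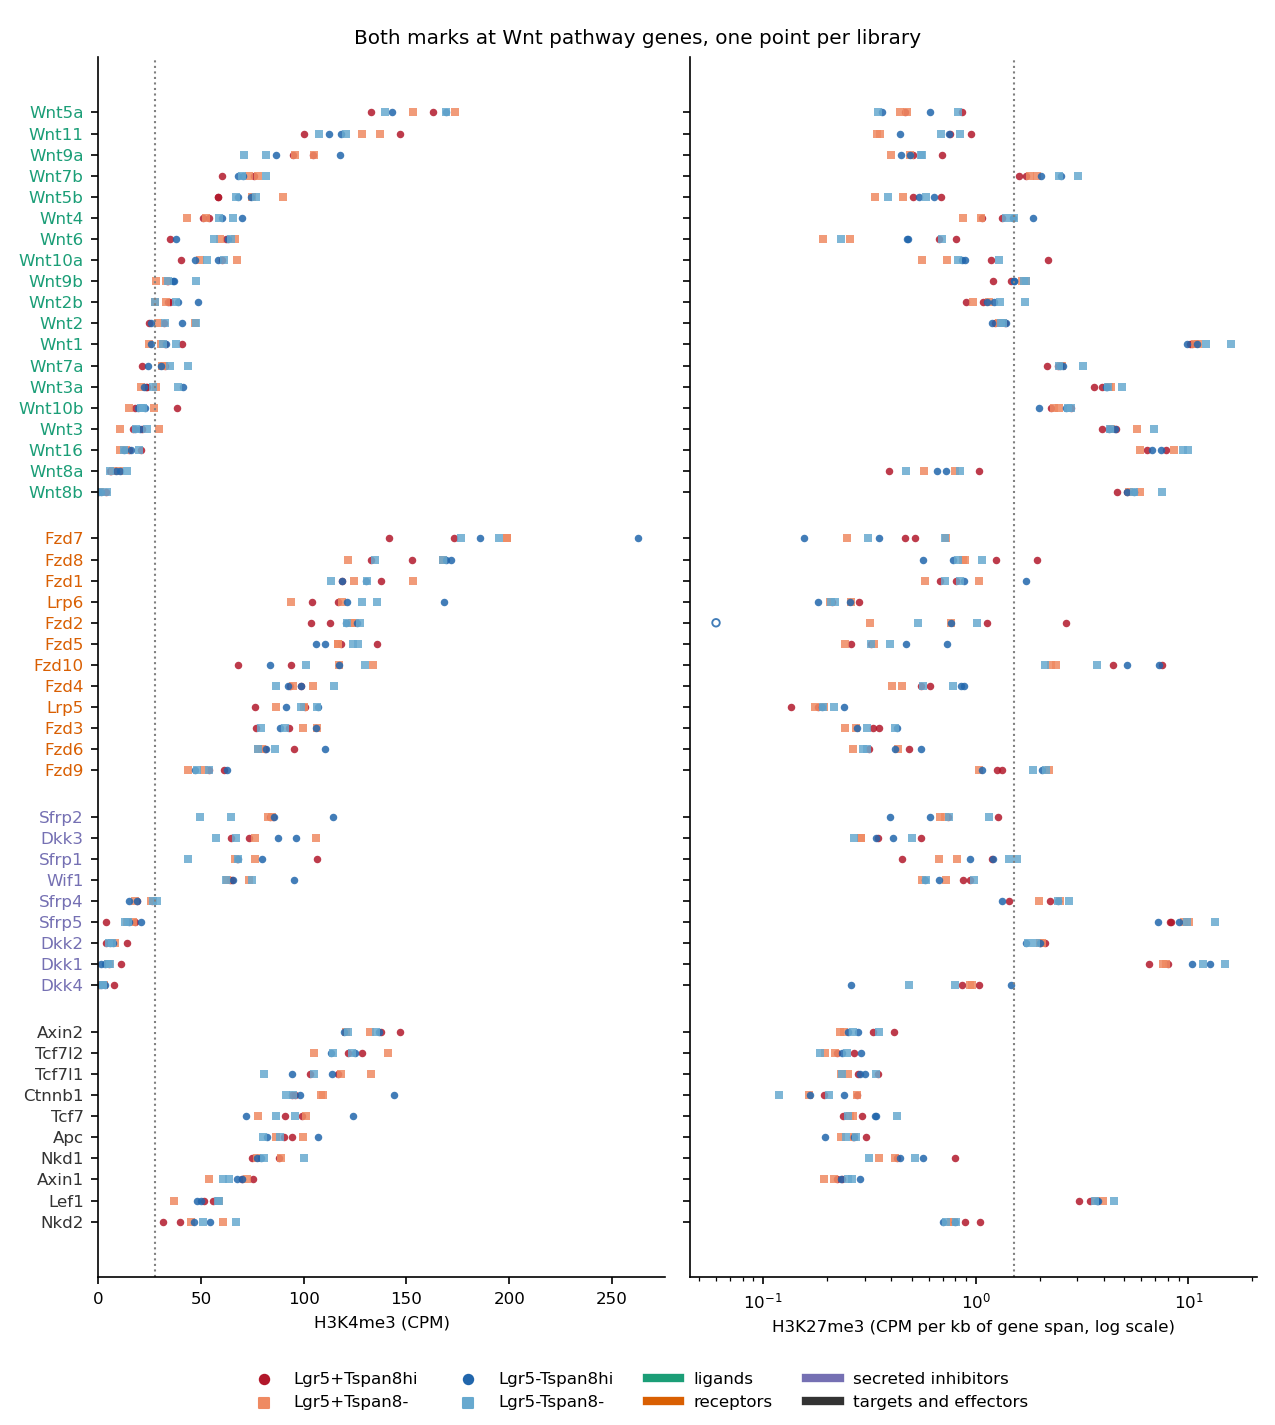
H3K4me3 (CPM, left) and H3K27me3 (CPM per kb of gene span, right, log scale) at each of the 50 genes, ordered by mean H3K4me3 within each role, with 1 point per library coloured by subpopulation and dotted lines at the limits for high H3K4me3 and dense H3K27me3. The hollow point at Fzd2 is a library with 0 counts, drawn at the left edge because a log axis has no 0, and the receptors lie to the right of the left-hand line while Fzd10 also lies beyond the right-hand line in every library.

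The receptors carried the most H3K4me3 of the 4 roles. Fzd7 (chromosome 1, 59482147 to 59486955, plus strand), a Frizzled that receives β-catenin-dependent signals, had the highest level of all 50 genes, at 142 and 173, 199 and 199, 263 and 186, and 177 and 195 CPM. This put it at the 99.7 percentile of all genes with a symbol, with the highest library in Lgr5-Tspan8hi and the lowest in Lgr5+Tspan8hi. Fzd8 was next among the receptors, at 133 and 153, 122 and 168, 169 and 172, and 134 and 168 CPM. H3K27me3 was 0.436 ± 0.209 CPM per kb at Fzd7 and 1.02 ± 0.423 at Fzd8 (SD over 8 libraries). The co-receptors Lrp5 and Lrp6 had the least H3K27me3 of the 12, at 0.19 and 0.227 CPM per kb.

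Fzd10 (chromosome 5, 128601106 to 128604093, plus strand) joined strong H3K4me3 with dense H3K27me3. H3K4me3 was 68.2 and 93.7, 117 and 134, 83.8 and 117, and 101 and 130.0 CPM. H3K27me3 was 4.44 and 7.48, 2.25 and 2.39, 7.29 and 5.16, and 3.7 and 2.1 CPM per kb, over the limit of 1.52 in every library. Fzd10 was at the 92.8 percentile for H3K4me3 and the 95.4 percentile for H3K27me3. Its start lies within 2 kb of that of Fzd10os, an antisense gene, so H3K4me3 there may belong to either. Fzd9 was the other receptor with both marks, with 1.26 and 1.32, 1.03 and 2.2, 1.07 and 2.04, and 1.86 and 2.13 CPM per kb of H3K27me3. Its libraries fell on both sides of the limit, and its 2.11 kb span held a total of 147 counts in 8 libraries.

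The promoters of Fzd7 and Fzd10 are printed as the receptors with the highest H3K4me3 and the densest H3K27me3, in the same form as above. Fzd7 (chr1:59481897-59482146, plus strand) holds 17 CpGs in 250 bases and Fzd10 (chr5:128600856-128601105, plus strand) holds 37.
Fzd7: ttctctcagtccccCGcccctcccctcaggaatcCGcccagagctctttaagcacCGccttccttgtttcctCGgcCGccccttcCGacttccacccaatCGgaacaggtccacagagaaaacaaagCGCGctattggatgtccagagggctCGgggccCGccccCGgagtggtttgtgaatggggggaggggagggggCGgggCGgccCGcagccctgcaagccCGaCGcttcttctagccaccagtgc
Fzd10: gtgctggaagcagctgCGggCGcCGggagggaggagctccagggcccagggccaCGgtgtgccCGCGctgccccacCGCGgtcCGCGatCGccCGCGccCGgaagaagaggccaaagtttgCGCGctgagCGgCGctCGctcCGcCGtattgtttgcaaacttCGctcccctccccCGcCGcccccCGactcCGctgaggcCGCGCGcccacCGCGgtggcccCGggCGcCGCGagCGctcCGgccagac

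The secreted inhibitors fell into 2 sets. Sfrp2, Dkk3, Sfrp1 and Wif1 had H3K4me3 means from 70.4 to 81.2 CPM and no dense H3K27me3. Sfrp2, which binds Wnt ligands, had H3K4me3 of 83.5 and 85, 82.6 and 84.3, 114 and 85.8, and 49.6 and 64.8 CPM. Dkk3, the most divergent Dkk, had 64.8 and 73.5, 76.1 and 106, 96 and 87.7, and 57.1 and 67.1 CPM. In both genes the lowest library was Lgr5-Tspan8- replicate 1.

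Dkk1, Sfrp5, Sfrp4 and Dkk2 were dense in H3K27me3 and low in H3K4me3. Dkk1, the inhibitor that ties up Lrp5 and Lrp6 (chromosome 19, 30545876 to 30549496, minus strand), had H3K27me3 of 8.06 and 6.53, 7.87 and 7.58, 12.7 and 10.4, and 11.6 and 14.9 CPM per kb. Sfrp5 had 8.32 and 8.17, 10.1 and 9.57, 7.2 and 9.07, and 9.85 and 13.3 CPM per kb. Dkk1 was at the 98.8 and Sfrp5 at the 98.6 percentile of all genes with a symbol, and no library of either came near the limit of 1.52 CPM per kb. H3K4me3 was 5.13 ± 2.73 CPM at Dkk1 and 14.5 ± 4.96 CPM at Sfrp5 (SD over 8 libraries). Dkk4 had neither mark, and its total of 61 H3K4me3 counts was too low to be tested.

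Among the intracellular genes Axin2, a scaffold of the destruction complex and a feedback target of β-catenin, had the most H3K4me3, at 147 and 137, 132 and 121, 119.5 and 137, and 122 and 135 CPM (chromosome 11, 108917828 to 108950783, plus strand). Tcf7l2, a factor that binds DNA with β-catenin, had 122 and 128, 105 and 141, 125 and 113, and 114 and 124 CPM. No library of either was under 104.98 CPM. The subpopulations overlapped at Tcf7l2, while at Axin2 both Lgr5+Tspan8hi libraries were the highest, the lower of them at 137.4 CPM beside 136.8 CPM in Lgr5-Tspan8hi replicate 2. Ctnnb1, which encodes β-catenin, had the least H3K27me3 of the group at 0.205 CPM per kb, and Axin1, Apc, Tcf7, Tcf7l1 and Nkd1 were likewise under the limit.

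Lef1 was the exception. This factor had H3K27me3 of 3.05 and 3.46, 3.69 and 3.96, 3.7 and 3.76, and 3.64 and 4.47 CPM per kb over a 114.061 kb span, beside H3K4me3 of 55.9 and 51.5, 36.8 and 58.7, 48 and 49.9, and 58.3 and 58.5 CPM. Every library was above the limit of each mark. The other Tcf factors had means from 0.232 to 0.3 CPM per kb. Nkd2, which like Nkd1 restrains dishevelled proteins, was the next densest effector, at 1.05 and 0.889, 0.762 and 0.791, 0.801 and 0.704, and 0.808 and 0.72 CPM per kb, and stayed under the limit.

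The Axin2 promoter is given as that of the pathway's standard feedback target (chr11:108920099-108920348, plus strand), with 24 CpGs in 250 bases. The start that the table uses here lies inside the gene span given above, downstream of its first base.
Axin2: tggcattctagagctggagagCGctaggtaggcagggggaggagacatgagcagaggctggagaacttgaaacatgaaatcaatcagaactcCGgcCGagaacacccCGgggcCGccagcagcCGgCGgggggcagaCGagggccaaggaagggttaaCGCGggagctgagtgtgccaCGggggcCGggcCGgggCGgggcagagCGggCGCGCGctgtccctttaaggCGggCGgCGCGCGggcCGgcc

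The RefSeq table gave a promoter (250 bases before to 50 bases after the start) for 34 of the 50 genes. The median number of CpGs in these 300 bases was 30, beside 7 over 27025 promoters of the table. It was 31 over 15 ligands, 35 over 6 receptors, 15 over 5 inhibitors and 32.5 over 8 effectors. Of the 4 inhibitors with dense H3K27me3, 3 have a promoter in the table, with 9 CpGs at Dkk1, 11 at Dkk2 and 15 at Sfrp5. Across the 34 genes the CpG number had a Spearman rho of 0.42 with H3K4me3 and -0.40 with H3K27me3 per kb, beside 0.75 and -0.38 across 18457 genes. These points share their libraries and their base composition. The promoter start lies farthest from the start of the gene span at Wnt9b (25.45 kb), Wnt6 (17.55 kb) and Nkd1 (6.291 kb). At such genes the CpGs and the H3K4me3 counts may come from different sites. The motif CTTTGAT or CTTTGAA, searched on both strands as a core bound by Tcf and Lef factors, was in 2 of the 34 promoters (Dkk1 and Wnt11, 5.88%), beside 8.79% of the table's promoters.

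The states held over the subpopulations for most genes. Here the same percentile limits were used, but all genes were ranked anew by the means of each subpopulation. The limits in CPM and in CPM per kb therefore differed from those given above. On that ranking 42 of the 50 genes kept a state in all 4 and 8 did not. Genes with both marks numbered 9 in Lgr5+Tspan8hi, 7 in Lgr5+Tspan8-, 9 in Lgr5-Tspan8hi and 8 in Lgr5-Tspan8- cells. Wnt10a, Fzd2 and Fzd8 had both marks in Lgr5+Tspan8hi cells and H3K4me3 alone elsewhere. Their H3K27me3 there was 2.18 and 1.18 (Wnt10a), 2.65 and 1.13 (Fzd2), and 1.24 and 1.95 CPM per kb (Fzd8). In each of these genes the libraries fell on both sides of the 1.52 CPM per kb used above. Wnt4 had both marks in Lgr5-Tspan8hi cells alone, Wnt10b in Lgr5+Tspan8hi cells alone, and Wnt3a in both Lgr5- subpopulations. Wnt9b and Fzd9 had both marks except in Lgr5+Tspan8hi cells. Fzd2 rests on few counts, which were 58 and 22, 14 and 6, 0 and 18, and 16 and 13 for H3K27me3. So does Fzd8, with 25 and 35 counts in Lgr5+Tspan8hi cells. These are descriptions of where means fall against a limit, and the tests of the differences follow.

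The Tspan8 comparison set the 4 Tspan8hi libraries of a mark against the 4 Tspan8- libraries, averaged over both Lgr5 states, to ask what goes with high Tspan8. H3K27me3 at Fzd10 was higher in Tspan8hi cells, and this was the change that passed among the 50 genes. Its values were 13.3 and 22.3, 6.73 and 7.15, 21.8 and 15.4, and 11.1 and 6.29 CPM, from 80 and 120, 34 and 37, 58 and 100, and 48 and 42 counts. All 4 Tspan8hi libraries lay above all 4 Tspan8- libraries, and so necessarily also within Lgr5+ and within Lgr5- cells. The means were 18.2 ± 4.56 and 7.81 ± 2.20 CPM (SD, n = 4 each), a 2.33-fold difference, with a log2 difference of 1.23 ± 0.25 (SE), edgeR adjusted p = 0.0223. Fzd10 was thus 1 of 50 genes called, where 0.335% of the 22099 genes tested were called.

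The call at Fzd10 rested on a few libraries. It ended when Lgr5+Tspan8hi replicate 2, either Lgr5+Tspan8- replicate or Lgr5-Tspan8- replicate 2 was left out, with adjusted p from 0.132 to 0.167 and log2 differences from 1.01 to 1.23. Effective depth as a percent of the total count separated the same libraries, at 31.0% to 63.5% against 70.7% to 77.5% for H3K27me3. Its part in the result was not tested. H3K4me3 at Fzd10 was 90.6 ± 20.4 CPM in Tspan8hi and 120.5 ± 14.7 CPM in Tspan8- libraries (SD, n = 4 each), with overlapping libraries and a log2 difference of -0.42 ± 0.13 (SE), edgeR adjusted p = 0.488. That difference did not pass, except without Lgr5-Tspan8hi replicate 2 (adjusted p = 0.0284).

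**Figure D3:**
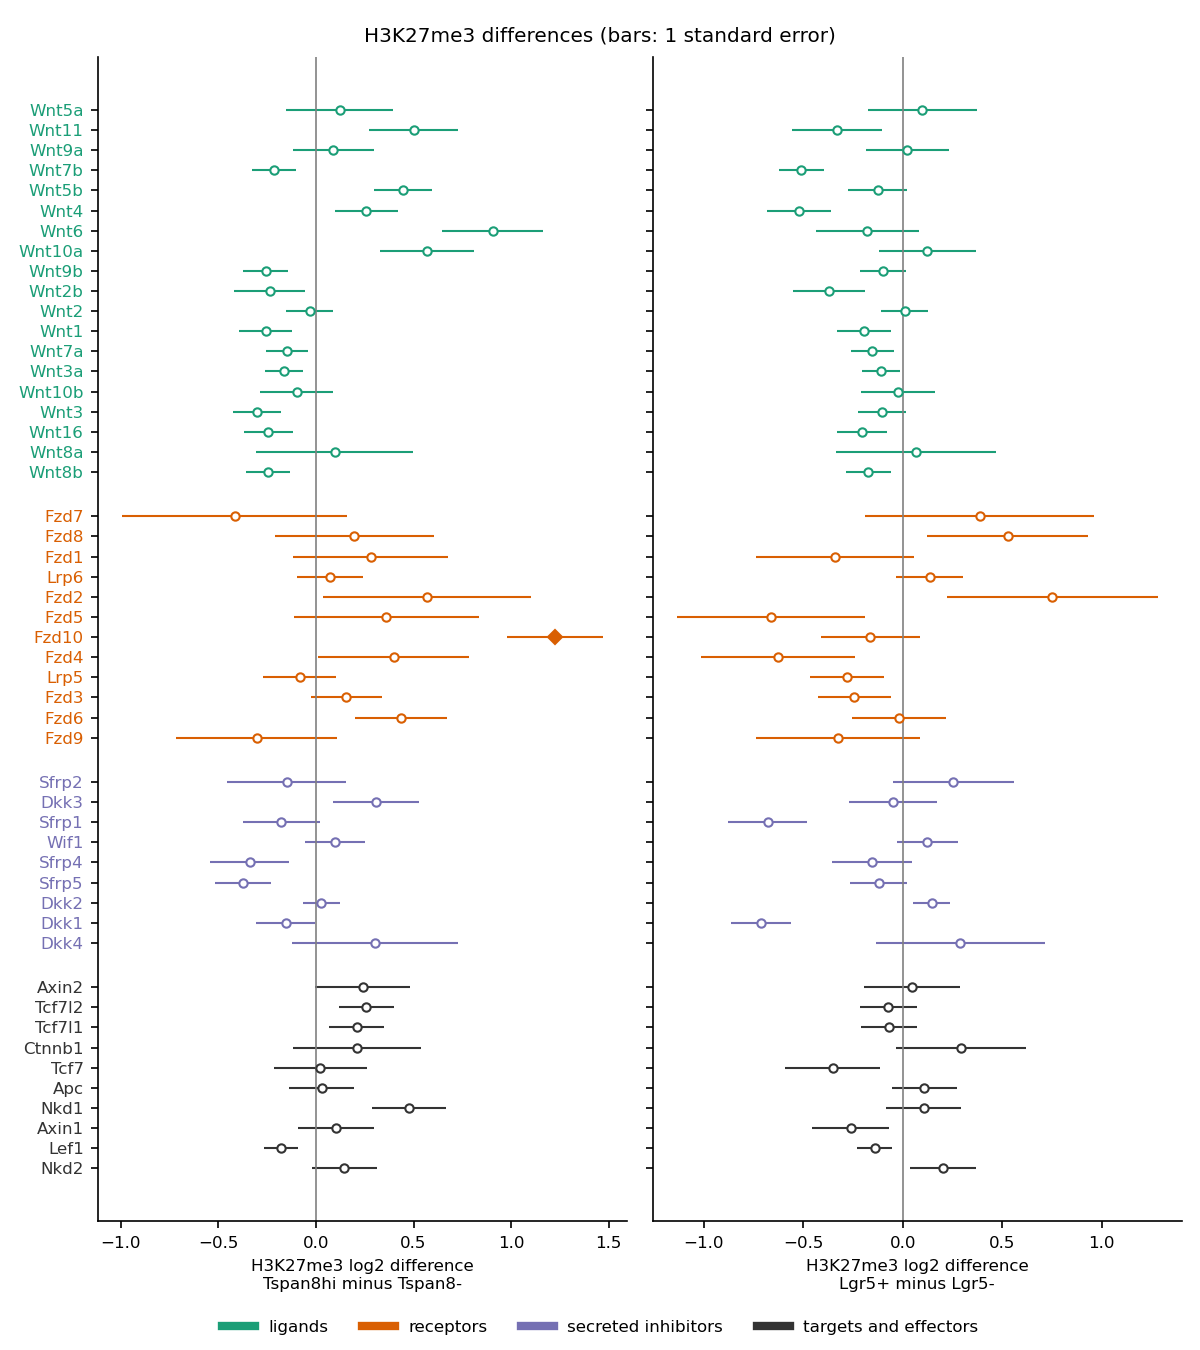
Log2 differences in H3K27me3 at the 50 genes, Tspan8hi minus Tspan8- on the left and Lgr5+ minus Lgr5- on the right, with bars of 1 standard error from the edgeR fit and colours by role. The filled diamond is Fzd10, at 1.23, which passed the threshold, and open circles did not pass.

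Wnt6 and Wnt5b had the next smallest p for H3K27me3 with Tspan8. Wnt6 had 25 and 20.8, 5.94 and 7.93, 14.7 and 14.8, and 21.4 and 7.19 CPM and a log2 difference of 0.91 ± 0.26 (SE), edgeR adjusted p = 0.118. Within Lgr5+ cells the Tspan8hi libraries lay above the Tspan8- libraries, while within Lgr5- cells Lgr5-Tspan8- replicate 1 was above both Tspan8hi libraries. Wnt5b had 76.9 and 57.1, 51.3 and 37.5, 71.8 and 61, and 65.2 and 43.3 CPM and 0.44 ± 0.15 (SE), edgeR adjusted p = 0.184, with 1 Tspan8- library inside the Tspan8hi range. Neither passed with edgeR, while limma-voom called Wnt6 (adjusted p = 0.0216), as did edgeR without a filter on low counts (adjusted p = 0.0475). Leaving out Lgr5-Tspan8- replicate 1 made both pass with edgeR, Wnt6 at 1.34 (adjusted p = 0.00144) and Wnt5b at 0.57 (adjusted p = 0.0185). Without Lgr5-Tspan8- replicate 2 the differences were 0.58 and 0.30.

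Of the 50 genes 10 had an unadjusted p under 0.05 in this comparison, beside 12.9% of all genes tested. In 3 of the 50 (Wnt9b, Wnt3a and Sfrp5) all Tspan8hi libraries lay below all Tspan8- libraries, where 3.55% of all genes did so, and 2.67% lay all above as Fzd10 did. The median log2 difference was -0.10 over the ligands, 0.24 over the receptors, -0.15 over the inhibitors and 0.18 over the effectors, beside 0.02 over all genes. Receptors were above 0 in 9 of 12 cases and effectors in 9 of 10. Of the other pathway genes described below, 36 of the 54 tested were above 0, with a median of 0.13. With each library scaled against H3K27me3 reads per kb, the ligand median moved to 0.00 and the inhibitor median to 0.04, so their sign depended on the scaling. The receptor and effector medians were then 0.20 and 0.09, and Wnt3a moved from -0.16 to 0.03. Single libraries also moved the medians. Without Lgr5+Tspan8hi replicate 2 the inhibitor median was 0.02, without Lgr5-Tspan8hi replicate 2 the ligand median was -0.00057, and without Lgr5+Tspan8hi replicate 1 the effector median was 0.09. The receptor median ran from 0.16 to 0.25 with each library left out in turn.

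**Figure D4:**
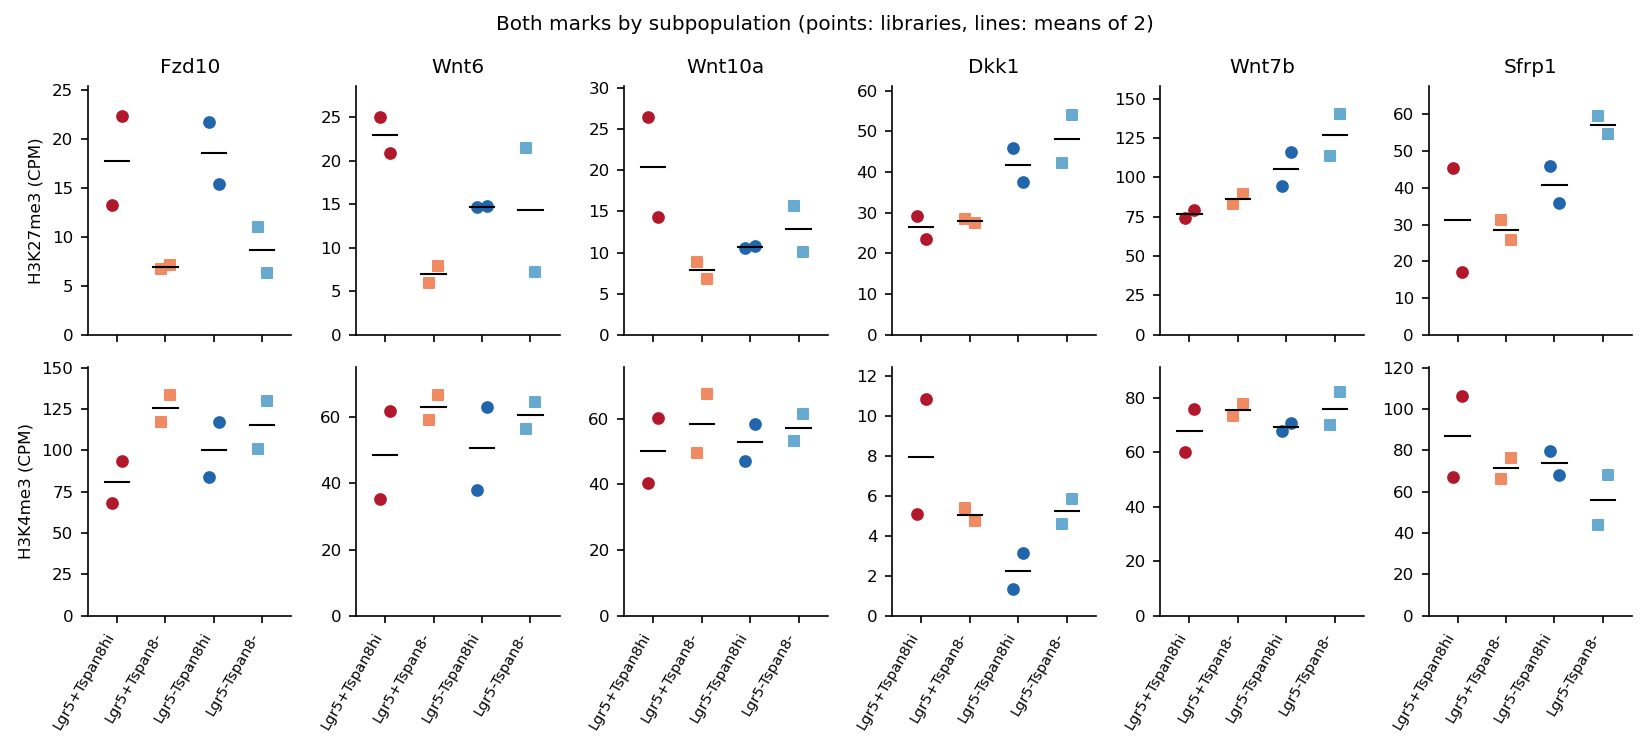
H3K27me3 (top row) and H3K4me3 (bottom row) in CPM at Fzd10, Wnt6, Wnt10a, Dkk1, Wnt7b and Sfrp1, with 1 point per library and a line at the mean of the 2 libraries of each subpopulation. H3K27me3 at Fzd10 is higher in both Tspan8hi subpopulations, and at Dkk1 and Wnt7b every Lgr5+ library lies below every Lgr5- library.

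The Lgr5 comparison set the 4 Lgr5+ against the 4 Lgr5- libraries, averaged over both Tspan8 states, to ask what goes with Lgr5. None of the 50 genes passed for H3K27me3 in the edgeR test (0 called, beside 0.0407% of 22099 genes), with 4 at an unadjusted p under 0.05, beside 7.19% of all genes. DESeq2 and limma-voom each called 2, Dkk1 and Wnt7b. Over all genes edgeR called 9, and the alternatives that kept every library called 8 to 80. At Dkk1 H3K27me3 was 29.2 and 23.6, 28.5 and 27.4, 45.8 and 37.6, and 42.2 and 54.1 CPM. All 4 Lgr5+ libraries lay below all 4 Lgr5- libraries, with means of 27.2 ± 2.47 and 44.9 ± 6.97 CPM (SD, n = 4 each). The log2 difference was -0.71 ± 0.15 (SE), edgeR adjusted p = 0.0706.

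Wnt7b had the same order. Its H3K27me3 was 74.1 and 79.5, 83.2 and 89.7, 94.3 and 116, and 114 and 140.3 CPM, and the Lgr5+ libraries again lay below all Lgr5- libraries (81.6 ± 6.55 and 116 ± 18.9 CPM, SD, n = 4 each). The log2 difference was -0.51 ± 0.11 (SE), edgeR adjusted p = 0.0923. Sfrp1 was lower on average in Lgr5+ libraries, at 45.4 and 17.1, 31.3 and 25.7, 45.8 and 35.9, and 59.5 and 54.8 CPM, but Lgr5+Tspan8hi replicate 1 lay among the Lgr5- values (-0.68 ± 0.20 (SE), edgeR adjusted p = 0.324). Without that library the log2 difference was -1.12 and passed (edgeR adjusted p = 0.00377), and without Lgr5+Tspan8hi replicate 2 it was -0.41 (edgeR adjusted p = 0.814). Leaving out Lgr5-Tspan8- replicate 1 made Dkk1 and Wnt7b pass with edgeR (adjusted p = 0.0106 and 0.00735), and leaving out Lgr5-Tspan8hi replicate 2 made Dkk1 pass (adjusted p = 0.0247).

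Wnt4, which progesterone induces in the gland, had H3K27me3 of 29.2 and 23.5, 23.2 and 19.1, 40.6 and 32.8, and 33.2 and 30.2 CPM, with all Lgr5+ libraries lower (-0.52 ± 0.16 (SE), edgeR adjusted p = 0.383). So Dkk1, Wnt7b and Wnt4 were the 3 of 50 genes whose Lgr5+ libraries were all below, where 1.51% of all genes were, and 0 of 50 were all above, where 2.1% were. Ligands were below 0 in 14 of 19 cases, with a median log2 difference of -0.13, and receptors in 8 of 12, with a median of -0.20, beside -0.01 over all genes. With libraries scaled against reads per kb the ligand median was -0.01. With each library left out in turn the ligand median ran from -0.18 to -0.08 and the receptor median from -0.28 to -0.06, the last without Lgr5-Tspan8hi replicate 1. At Dkk1, Wnt7b and Sfrp1 the subpopulation with the highest mean was Lgr5-Tspan8-. Summed H3K4me3 of the 9 fibroblast markers was also highest there, at 292.6 to 305.0 CPM against 182.5 to 252.2 CPM in the other libraries, with Col3a1 and Fap at 0 in at least 1 library, and its part was not tested.

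The interaction asked whether the Tspan8 difference was larger in Lgr5+ than in Lgr5- cells. For H3K27me3 0 of 50 genes passed with edgeR, DESeq2 or limma-voom, beside 0.00905% of all genes with edgeR, and 6 had an unadjusted p under 0.05, beside 5.5%. The 3 smallest p were at ligands. Wnt11 had 18.7 and 14.9, 6.73 and 6.96, 8.64 and 14.8, and 16.6 and 13.5 CPM and an interaction of 1.59 ± 0.46 (SE), edgeR adjusted p = 0.539. In Lgr5+ cells its Tspan8hi libraries lay above its Tspan8- libraries, and in Lgr5- cells the groups overlapped.

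The neighbours Wnt10a and Wnt6 showed the same pattern. Wnt10a had 26.5 and 14.3, 8.91 and 6.77, 10.5 and 10.8, and 15.7 and 10 CPM and an interaction of 1.63 ± 0.49 (SE), edgeR adjusted p = 0.584. For Wnt6 the interaction was 1.64 ± 0.52 (SE), edgeR adjusted p = 0.652. None of these passed, but Wnt11 did without Lgr5-Tspan8hi replicate 2 and Wnt6 without Lgr5-Tspan8- replicate 2. In all 3 genes both Lgr5+Tspan8- libraries were among the 3 lowest. Interaction values were above 0 for 38 of the 50 genes, with a median of 0.20, beside 0.00 over all genes. The other pathway genes described below also had a median of 0.20, with 34 of the 54 tested above 0. In the test for any difference between the subpopulations 0 of 50 genes passed with edgeR, beside 0.529% of all genes, and 11 had an unadjusted p under 0.05, beside 11.1%. The smallest were Fzd10 (adjusted p = 0.0725), Wnt7b (0.0726) and Dkk1 (0.0775). In that test DESeq2 called 2 of the 50 genes and limma-voom 4. Over all genes edgeR called 117, and the alternatives that kept every library called 109 to 670.

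H3K4me3 gave no call among the 48 genes tested, in any comparison, with edgeR, DESeq2 or limma-voom. Over all 19009 genes edgeR called 0.0473% with Tspan8, 0.0421% with Lgr5, 0.0% in the interaction and 0.0894% for any difference. Unadjusted p was under 0.05 for 4, 3, 4 and 6 of the 48 genes in that order, beside 5.9%, 4.98%, 4.2% and 5.27% of all genes.

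After Fzd10, the smallest p with Tspan8 were at Sfrp2 and Nkd2. Sfrp2 was at 92.1 ± 14.7 CPM in Tspan8hi and 70.3 ± 16.4 CPM in Tspan8- libraries (SD, n = 4 each), with a log2 difference of 0.39 ± 0.14 (SE), edgeR adjusted p = 0.667. Its 2 lowest libraries were those of Lgr5-Tspan8- cells. Nkd2 had H3K4me3 of 31.4 and 39.7, 45.1 and 60.7, 54.3 and 46.4, and 50.8 and 66.9 CPM and -0.40 ± 0.18 (SE), edgeR adjusted p = 0.782, with overlapping libraries.

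With Lgr5 the smallest p were at Lrp6, Wnt4 and Tcf7l1. The co-receptor gene Lrp6 had 104 and 117, 119 and 93.8, 168 and 121, and 136 and 129 CPM, all Lgr5+ libraries being lower (-0.34 ± 0.12 (SE), edgeR adjusted p = 0.926). Wnt4 had 53.8 and 50.9, 52.7 and 43.2, 69.7 and 60, and 58.9 and 65.6 CPM, again with all Lgr5+ libraries lower (-0.34 ± 0.16 (SE), edgeR adjusted p = 0.971). Wnt4 was thus lower in Lgr5+ libraries in both marks, with neither difference passing. Tcf7l1 had 103 and 117, 133 and 118, 114 and 94.3, and 80.8 and 105 CPM, with overlapping libraries (0.25 ± 0.13 (SE), edgeR adjusted p = 0.971). Lrp6, Wnt4 and Wnt9b were the 3 of 48 genes with all Lgr5+ libraries below, where 1.28% of all genes were, and 0 of 48 had them all above, where 1.55% did. With Tspan8, 0 of 48 genes had groups that did not overlap, where 1.56% of all genes were all above and 1.57% all below. Role medians of the H3K4me3 log2 differences lay between -0.09 and 0.10 in both comparisons.

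Another 55 genes of the pathway were counted in the same way: genes for ligand secretion, other receptors, further inhibitors, dishevelled proteins, the destruction complex, nuclear partners, planar polarity and further targets. Of these 41 had H3K4me3 alone, 8 had both marks, 4 had H3K27me3 alone and 2 had neither. Those with both marks included the feedback genes Sp5, at 10.4 CPM per kb of H3K27me3 with 64.0 CPM of H3K4me3, and Notum, which removes the lipid from Wnt ligands, at 5.10 CPM per kb with 38.9 CPM. Myc and Ccnd1, often named as targets, had 185 and 121 CPM of H3K4me3 and 0.24 and 1.28 CPM per kb of H3K27me3.

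None of these genes passed with edgeR in any of the 8 tests, over 55 genes for H3K4me3 and 54 for H3K27me3 (0 called). DESeq2 called Tle4 for H3K27me3 with Tspan8, and Apc2, Celsr1 and Ror2 for any difference, where limma-voom called Ror2. Over all genes the alternatives that kept every library called 64 to 678 with Tspan8 and 109 to 670 for any difference. Unadjusted p was under 0.05 for 1 with Tspan8 and 5 with Lgr5 for H3K4me3, and for 10 and 8 for H3K27me3. For H3K27me3 with Tspan8 the smallest p were at the co-repressor gene Tle4 (log2 difference 0.40 ± 0.12 (SE), edgeR adjusted p = 0.139) and at Apc2 (-0.46 ± 0.15 (SE), edgeR adjusted p = 0.178). With Lgr5 they were at the polarity gene Celsr1 (-0.50 ± 0.13 (SE), edgeR adjusted p = 0.246) and the cyclin gene Ccnd1 (-0.88 ± 0.24 (SE), edgeR adjusted p = 0.255). Ccnd1 was 1 of 2 among these 54 genes with all Lgr5+ libraries below, where 1.51% of all genes were. Another 1 of the 54 had them all above, where 2.1% did. For H3K4me3 they were at the inhibitors Sostdc1 (-0.39 ± 0.15 (SE), edgeR adjusted p = 0.733) and Frzb (0.29 ± 0.15 (SE), edgeR adjusted p = 0.847) with Tspan8. With Lgr5 they were at Ctbp1 (0.47 ± 0.15 (SE), edgeR adjusted p = 0.703) and Frzb (-0.47 ± 0.15 (SE), edgeR adjusted p = 0.711).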

How the data were processed

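The labels list 24 samples: 16 immunoprecipitated libraries and 8 inputs. The inputs are not used here, and values are not relative to them. Per the labels' protocols, chromatin was sheared to 200 to 400 bp. For each library the authors deposited raw counts for 27080 Entrez genes, made with featureCounts on mm10, per the submitters' processing notes. The sources used here do not give the aligner, annotation or counted region. Neighbouring genes with starts under 1 kb apart had a median count ratio of 1.01 over 1670 pairs for H3K4me3 and 4.17 over 1148 pairs for H3K27me3. Spearman's rho of gene span with count over 25185 genes was 0.348 and 0.797. H3K27me3 was therefore also divided by the gene span of the RefSeq table of GRCm38.p6, which named 25189 genes and left 1891 without a symbol. Of the 50 genes, 6 start within 2 kb of another gene, 9 overlap one, and 40 do neither; reads of such genes cannot be told apart.

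Each mark was fitted on its 8 libraries with edgeR 4.0.16 in R 4.3.3 (filterByExpr, TMM, a mean per subpopulation, robust quasi-likelihood F test), which kept 19009 genes for H3K4me3 and 22099 for H3K27me3. Adjusted p-values are Benjamini-Hochberg over all genes kept, with a threshold of 0.05, and standard errors were obtained from the F statistic. With 4 residual degrees of freedom the fit leaned on the common spread, a biological coefficient of variation of 16% and 16.8%. CPM are scaled with the TMM factors. Replicates differed by more than sampling noise (chi-square per degree of freedom 3.07 to 4.91 and 3.59 to 5.91). Depth sets the precision: counting error weighs most on genes with few counts. The fit was also run on simulated counts, but the outcome is not reported here and is not used as support.

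The 50 genes, the other lists and the tests were chosen with earlier results of these data known. Named with all library values were genes past the threshold, the 2 highest in H3K4me3 and the 2 densest in H3K27me3 of each role, the 3 smallest p in each mark and averaged comparison, and genes within 50 kb of each other. Of the other pathway genes the 2 smallest p were named, and further ones were picked after their values were seen. Alternatives were DESeq2 1.42.0, limma-voom (limma 3.58.1), RLE factors, library totals alone, loess offsets, no filter, a mean of at least 5 CPM, a replicate block, each library left out, and other limits for the states. Offsets against reads per kb and GENCODE M21 spans were added after seeing the data.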

Additional observations from a re-analysis of the deposited data

How the results depend on the processing

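For H3K27me3 with Tspan8, edgeR called 1 of the 50 genes, limma-voom 2, the fit without a filter 2 and DESeq2 0, where DESeq2 gave no adjusted p for Fzd10. With Lgr5 (0 called), DESeq2, limma-voom and no filter each called 2, and offsets against reads per kb called 1. For any difference (0 called), the counts were 2 with DESeq2, 4 with limma-voom, 4 without a filter and 2 with offsets against reads per kb. Leaving out each library in turn gave 0 to 7 calls with Tspan8, 0 to 2 with Lgr5, 0 to 2 in the interaction and 0 to 8 for any difference. The 7 came without Lgr5-Tspan8- replicate 1 and the 8 without Lgr5-Tspan8hi replicate 2. For H3K4me3 with Tspan8 leaving out a library gave 0 to 1, Fzd10 without Lgr5-Tspan8hi replicate 2. Other H3K4me3 counts stayed at 0. For H3K27me3 the calls over all genes also moved in these fits. In each of the comparisons they went both below and above the number found with every library kept. The counts for the 50 genes with a library left out are therefore not a result particular to the Wnt genes. The causes were not tested.

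The labels do not say whether replicate numbers mark pairs. Same-numbered libraries deviated together with r from 0.0071 to 0.2012 for H3K4me3 and from 0.0172 to 0.2248 for H3K27me3, above 0 throughout but not over 0.1 between every pair of subpopulations, so the numbers were used as names. With the replicate block, H3K27me3 calls were 3 with Tspan8 (Fzd10, Wnt5b, Wnt6), 3 with Lgr5 (Dkk1, Sfrp1, Wnt7b) and 6 for any difference, and over all genes 678 with Tspan8. With Lgr5 and for any difference the alternatives that kept every library, this block among them, called up to 80 and 670 over all genes. Of the 50 genes, those named with a difference in an averaged comparison kept its sign in 16 alternatives for H3K4me3 and 17 for H3K27me3, except Wnt3a for H3K27me3 with Tspan8. With GENCODE spans 31, 9, 8 and 2 genes had H3K4me3 alone, both marks, H3K27me3 alone and neither.

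Genes with both marks numbered 8, but 4 with a 90th percentile limit for H3K27me3, 15 by CPM not divided by span and 4 with a 60th percentile limit for H3K4me3. H3K27me3 alone went from 8 to 5 at the 90th percentile and to 12 with the 60th percentile limit for H3K4me3. Genes with neither mark went from 2 to 5, 4 and 4 in the 3 settings.

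Over all genes the calls for H3K27me3 with Tspan8 were 74, but 64 to 678 in the alternatives that kept every library. They ranged more widely with a library left out. Genes with few counts, such as Wnt8b and Dkk4 for H3K4me3 and Fzd2 and Fzd9 for H3K27me3, allow no statement on small differences.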
